A study of Mus musculus with 6 samples.

Results

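The transporters that carry neurotransmitters and amino acids across the plasma membrane and into synaptic vesicles were followed in RNA-Seq of the somatosensory cortex of adult male mice. All genes of the tables named as members of the Slc1, Slc3, Slc6, Slc7, Slc17, Slc18, Slc32, Slc36 and Slc38 families were taken, which gave 71 of the 21667 named genes. The genes were taken by name, and the families were chosen with earlier results of these data known. The 3 controls were homozygous for the floxed *Mef2c* allele and had no Cre (Mef2cfl/fl), and the 3 *Mef2c* cKO mice carried the same floxed alleles together with Emx1-Cre. The strain background of both was a mixture of SVeV-129 and C57BL/6J, and the *Mef2c* cKO mice were compared with their littermates. Replicate 1 of each genotype was 14 weeks old, and replicates 2 and 3 were 12 weeks old. Emx1-Cre acts in the lineage of the excitatory neurons of the forebrain and of some of its glia, where it deletes the floxed exons, and interneurons, microglia, blood vessels and axons arriving from the thalamus lie outside its lineage.

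One table per mouse gives RPKM, in which reads are divided by the length of the gene and by the depth of the library. In these tables the lengths did not belong to the genes. They repeated in a cycle of 65 to 296 lengths over the rows, with another cycle in each mouse, so that the deposited RPKM of one gene could not be compared between mice. Whole read counts were recovered from the steps of the values, for at least 99.9% of the values above 0 in each table and for all 71 transporter genes in all 6 mice. The libraries held 19326365 to 54128334 reads. Levels are given below as CPM, the reads of a gene scaled to 1000000 reads of its library, and as CPM per kilobase of annotated exon where genes are compared with each other. Of the gene targeted in the *Mef2c* cKO mice, the CPM was 800, 772 and 800 in the controls and 1231, 1276 and 1468 in the libraries labelled *Mef2c* cKO. Reads counted over the whole gene were thus higher in all 3 of these libraries (two-sided exact permutation test, p = 0.1, and no smaller p is possible with 3 against 3 mice, limma log2 fold change 0.74, adjusted p = 1.8e-04). A count over the whole gene does not separate the floxed exons, so these values do not check the deletion, and the direction of every difference below rests on the sample labels. The study's methods describe the Cre as a knock-in at *Emx1*, and *Emx1* itself had 16.5, 20.3 and 18.8 CPM in the controls and 5.71, 4.97 and 5.10 CPM in the libraries labelled *Mef2c* cKO, lower in all 3 (log2 fold change -1.79, limma adjusted p = 1.2e-05).

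Released glutamate and GABA are taken back up by carriers in the plasma membrane of astrocytes and neurons, the Slc1 family for glutamate and part of the Slc6 family for GABA. Inside the nerve terminal, the vesicular carriers of the Slc17, Slc18 and Slc32 families load glutamate, monoamines, acetylcholine, GABA and glycine into synaptic vesicles. Glutamine made in astrocytes returns to neurons through the Slc38 family, and the Slc7 family, partly bound to a heavy chain of the Slc3 family, exchanges cationic, large neutral and other amino acids.

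Of the 71 transporter genes, 52 were above 0.5 CPM in all mice of one or both genotypes and were tested in a limma fit over all 14625 genes that met this condition. A gene was called when its Benjamini-Hochberg adjusted p-value over all these genes was under 0.05 and its absolute log2 fold change above 0.3, and SE below is the standard error of a log2 fold change in this fit. Of all genes tested, 13.7% were called, 7.77% as decreased and 5.88% as increased. Among the transporter genes 7 of 52 were called (13.5%), 2 decreased and 5 increased, so that the share called was near that of all genes. The decreased genes were *Slc17a6* and *Slc17a8*, and the increased genes *Slc7a2*, *Slc7a4*, *Slc6a15*, *Slc6a9* and *Slc38a2*. The median log2 fold change was 0.05 over the tested transporter genes and 0.01 over all genes tested, and the median absolute log2 fold change was 0.19 against 0.13. The 3 *Mef2c* cKO mice were higher than each of the 3 controls in 10 transporter genes, against 16.3% of all genes tested, and lower than each in 7, against 17.5%. Cortical tissue holds many cell types, and a lower level can be fewer cells of a type or less RNA per cell, which cannot be told apart here.

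**Figure D1:**
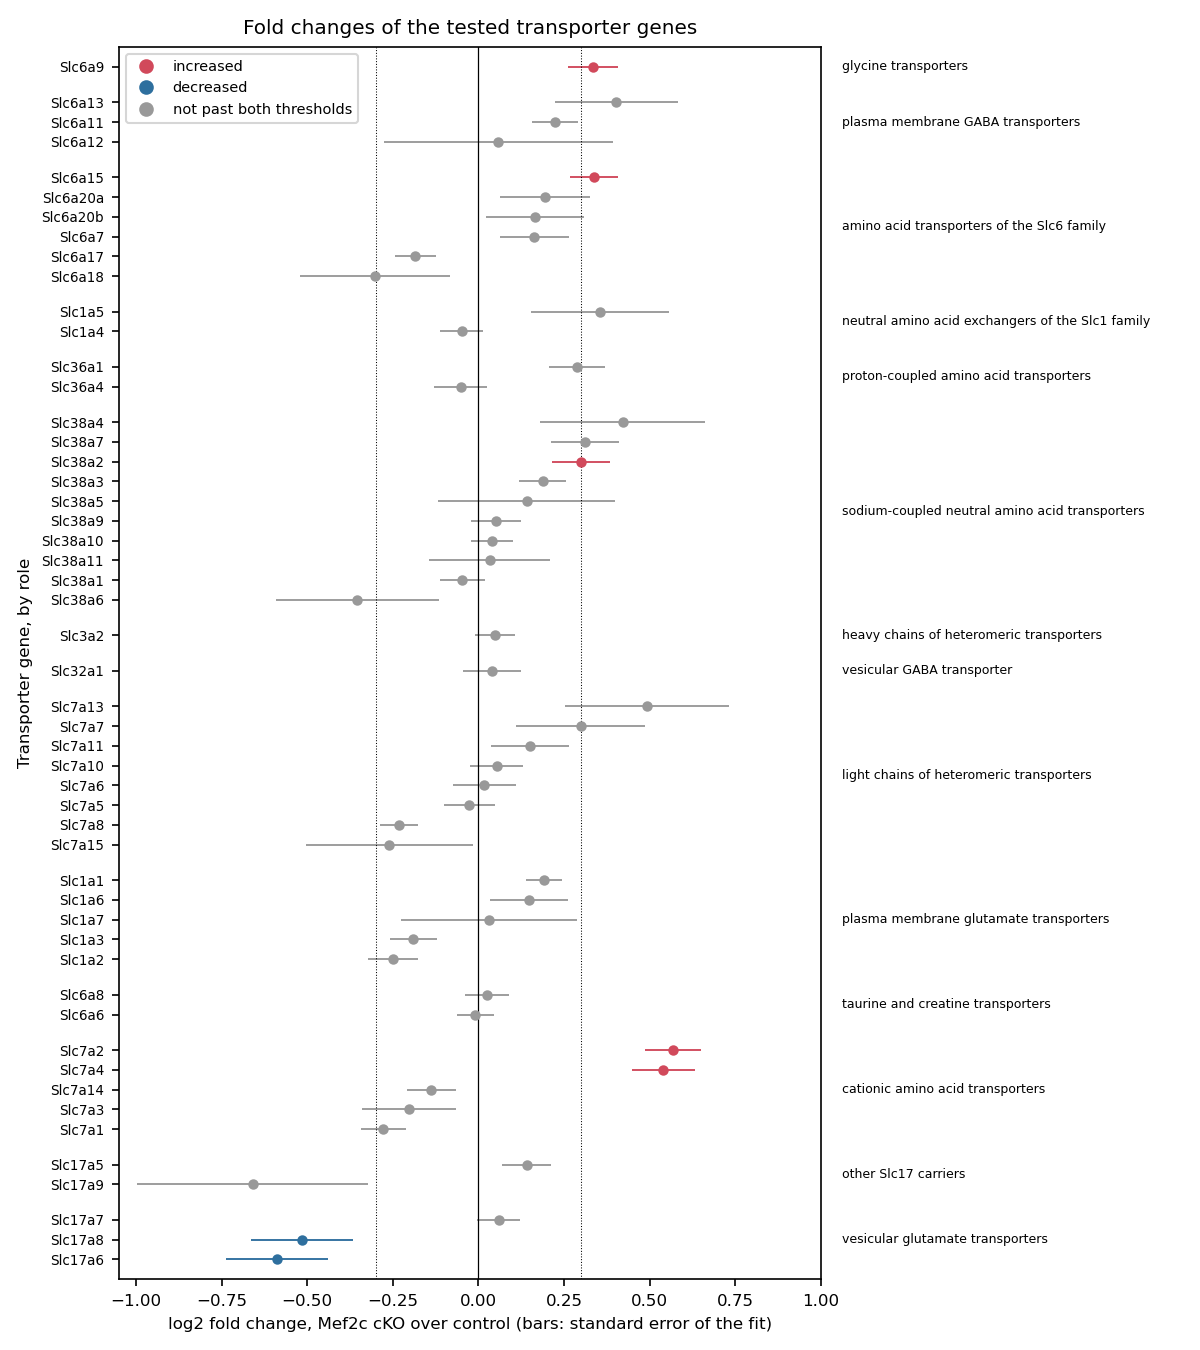
Log2 fold change of *Mef2c* cKO over control for 51 of the 52 tested transporter genes, ordered by role, with the standard error of the limma fit as bars and the fold change threshold of 0.3 as dotted lines. Red genes are increased and blue genes decreased past both thresholds. The values run from -0.66 for *Slc17a9*, which did not pass the p-value threshold, to 0.57 for *Slc7a2*.

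In control cortex the transporter genes spanned several orders of magnitude. *Slc17a7*, the main vesicular glutamate transporter of cortical pyramidal neurons, stood first with a mean of 405 CPM per kilobase of exon. It was followed by *Slc1a2*, the main glutamate transporter of astrocytes, with 259 CPM per kilobase. Both stood apart from the genes next to them over the control mice. Of the 50 neighbouring pairs in the order of the 51 genes shown, 35 did overlap, so that the order further down is mostly within the spread between mice. A level above 10 CPM per kilobase was found for 24 of these genes and one below 1 for 11. All 71 transporter genes together took 8496 to 8903 CPM in the controls and 8011 to 8174 CPM in the *Mef2c* cKO mice. *Slc1a2* alone took 3302 to 3578 CPM in the controls and 2739 to 3014 CPM in the *Mef2c* cKO mice, and weighs heavily in this sum. The sum is thus not a direction shared by the set: of the 52 tested genes, 33 had a log2 fold change above 0 and 19 below 0.

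**Figure D2:**
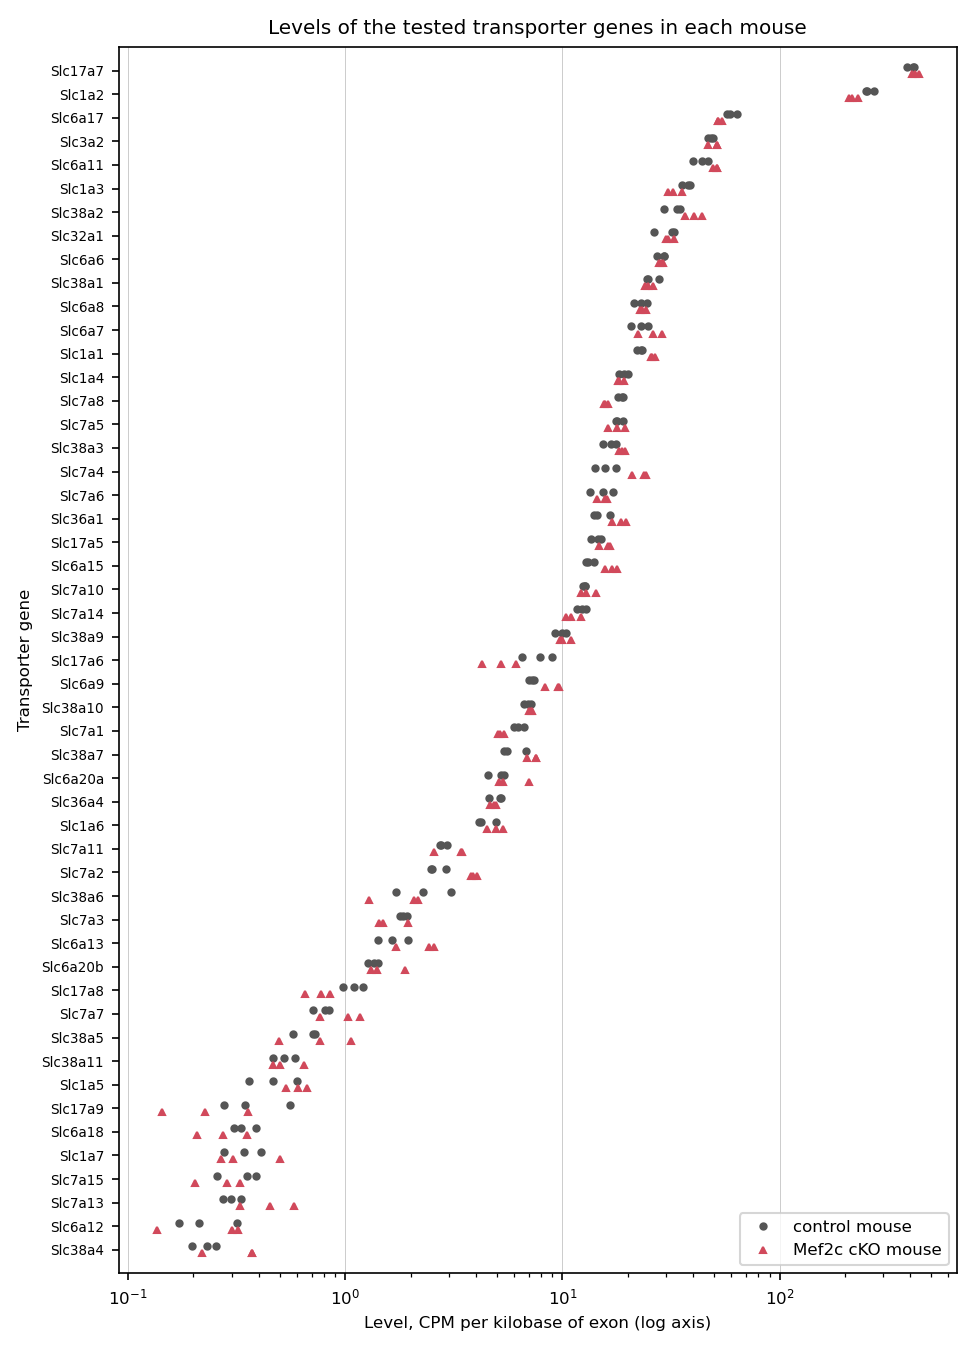
Level of 51 tested transporter genes in each mouse, in CPM per kilobase of annotated exon on a log axis, with grey circles for the 3 controls and red triangles for the 3 *Mef2c* cKO mice. Genes are ordered by their control mean, from 405 for *Slc17a7* down to 0.228 for *Slc38a4*, and for most genes the symbols of both genotypes lie over each other.

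Of the 3 vesicular glutamate transporters *Slc17a7* was not called, with overlapping genotypes, while *Slc17a6* and *Slc17a8*, both present at far lower levels in cortex, were decreased. *Slc17a6* is the main vesicular glutamate transporter of thalamic neurons and is also transcribed at low levels in cortical neurons, and *Slc17a8* is found in scattered neurons, among them some interneurons. The sequences before their annotated start sites are shown because these genes load the same transmitter and had different results. They are the 250 bases before the first start site listed for each gene in RefSeq (GRCm38.p6), 5′ to 3′ on the gene's strand.
Slc17a7 (chr7:45163671-45163920, plus strand): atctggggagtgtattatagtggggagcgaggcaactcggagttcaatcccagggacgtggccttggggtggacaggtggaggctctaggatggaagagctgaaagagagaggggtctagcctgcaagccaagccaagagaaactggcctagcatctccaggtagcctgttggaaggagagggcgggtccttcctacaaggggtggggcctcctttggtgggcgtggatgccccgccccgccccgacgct
Slc17a6 (chr7:51621580-51621829, plus strand): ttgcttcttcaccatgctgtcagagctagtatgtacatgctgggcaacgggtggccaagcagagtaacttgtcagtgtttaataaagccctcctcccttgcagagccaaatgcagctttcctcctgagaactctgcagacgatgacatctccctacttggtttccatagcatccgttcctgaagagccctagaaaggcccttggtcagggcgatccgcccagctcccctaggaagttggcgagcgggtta
Slc17a8 (chr10:89621250-89621499, minus strand): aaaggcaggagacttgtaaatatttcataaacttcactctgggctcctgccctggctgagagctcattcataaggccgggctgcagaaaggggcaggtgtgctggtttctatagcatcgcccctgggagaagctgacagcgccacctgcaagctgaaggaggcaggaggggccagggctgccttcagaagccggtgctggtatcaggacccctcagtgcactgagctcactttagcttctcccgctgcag
Capitals would mark TGACG, the core of the cAMP response element, on either strand, and none of these 3 stretches holds it. Over all RefSeq windows of these genes, which reach further and include a second start site of *Slc17a6* and *Slc17a8*, TGACG is found for *Slc17a6*. The MEF2 consensus is also not in the RefSeq windows of these 3 genes.

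*Slc17a7* lies on chromosome 7 of mm9 from 52419291 to 52431508 and had 1206, 1230 and 1137 CPM in the controls and 1289, 1194 and 1240 CPM in the *Mef2c* cKO mice. These ranges overlap, with a log2 fold change of 0.06 (SE 0.06, limma adjusted p = 0.591). For *Slc17a6*, on chromosome 7 from 58877200 to 58926495, the controls had 38.8, 34.1 and 28.1 CPM and the *Mef2c* cKO mice 18.3, 26.4 and 22.5 CPM. All *Mef2c* cKO mice were below all controls, but the highest of them was close to the lowest control. The mean fell by 33.5%, a log2 fold change of -0.59 (SE 0.15, limma adjusted p = 0.026). *Slc17a8*, on chromosome 10 from 89036765 to 89083998, had 4.59, 5.20 and 5.72 CPM in the controls and 3.66, 4.04 and 3.09 CPM in the *Mef2c* cKO mice. Its mean fell by 30.5%, a log2 fold change of -0.52 (SE 0.15, limma adjusted p = 0.044). Of all reads on the 3 vesicular glutamate transporters, *Slc17a6* took 3.11%, 2.69% and 2.40% in the controls and 1.40%, 2.15% and 1.78% in the *Mef2c* cKO mice, and *Slc17a8* took 0.367%, 0.410% and 0.489% in the controls and 0.280%, 0.330% and 0.244% in the *Mef2c* cKO mice. In both shares the genotypes did not overlap (exact permutation test, p = 0.1, adjusted p = 0.12 over 6 such values tested). *Slc17a7* took most of these reads, so both shares largely restate the levels of *Slc17a6* and *Slc17a8* given above.

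Both decreases were near the threshold. The adjusted p-value of *Slc17a6* from limma rose above 0.05 without control replicate 1 (0.089), control replicate 2 (0.079), *Mef2c* cKO replicate 1 (0.075) or *Mef2c* cKO replicate 3 (0.058), and in the 12-week-old mice alone its log2 fold change was -0.34 (limma adjusted p = 0.161). Without a variance trend its limma adjusted p-value was 0.070. *Slc17a8* stayed called in 1 of the 6 fits that left out a mouse, the one without *Mef2c* cKO replicate 2. Its limma adjusted p-value was 0.051, 0.117 and 0.152 without control replicates 1, 2 and 3 and 0.090 and 0.129 without *Mef2c* cKO replicates 1 and 3. With the replicate number as a block it was 0.098, in the 12-week-old mice alone 0.094 (log2 fold change -0.61) and without a filter on low values 0.074. Thalamus markers were measured as a list beside these genes. Of 8 such genes 6 were tested, *Prkcd* was increased (log2 fold change 0.55) and *Rgs16* decreased (log2 fold change -0.63), *Lhx9* and *Gbx2* were under 0.5 CPM in every mouse, and the summed CPM of the list was 51.8 to 55.2 in controls and 56.3 to 65.5 in *Mef2c* cKO mice. *Plekhg1* alone had 17.1 to 20.6 CPM in controls and 19.0 to 24.8 CPM in *Mef2c* cKO mice. Relative to this list, *Slc17a6* had 75.0, 63.1 and 50.9 reads per 100 reads of the list in the controls and 32.5, 44.6 and 34.4 in the *Mef2c* cKO mice, again without overlap (exact permutation test, p = 0.1, adjusted p = 0.12 over 6 values). The part of thalamic RNA in the *Slc17a6* values was not tested.

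**Figure D3:**
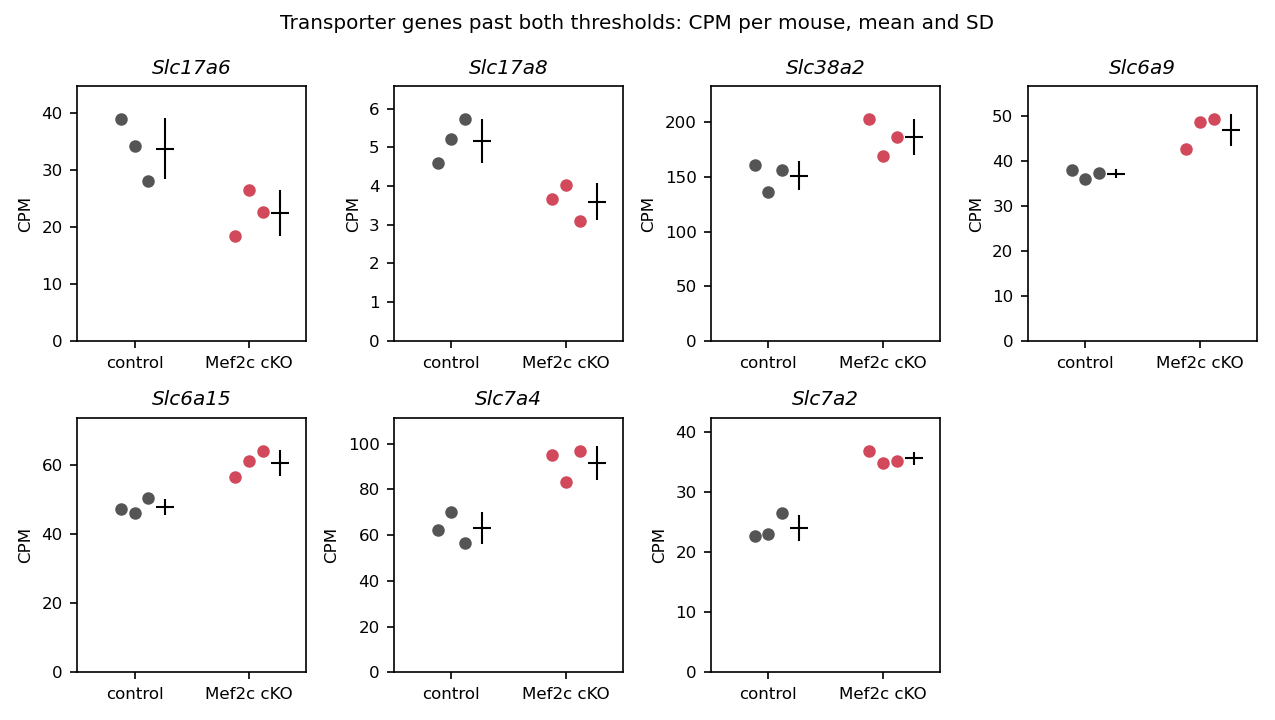
CPM of the 7 called transporter genes in each mouse, with the mean and SD of the 3 mice of a genotype beside the points and every axis starting at 0. In all 7 panels the 3 *Mef2c* cKO mice lie on one side of the 3 controls, with narrow gaps for *Slc17a6* (26.4 against 28.1 CPM) and *Slc38a2* (161 against 169 CPM).

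None of the 4 GABA carriers described here was called by limma or by limma with voom weights, and 1 had an unadjusted p under 0.05. *Slc32a1*, the vesicular carrier for GABA and glycine, had 91.6, 89.7 and 74.5 CPM in the controls and 91.2, 84.5 and 86.1 CPM in the *Mef2c* cKO mice, with overlapping ranges and a log2 fold change of 0.04 (SE 0.08, limma adjusted p = 0.807). *Slc6a11*, which encodes the astrocytic GAT3, had 191, 162 and 179 CPM in the controls and 201, 209 and 211 CPM in the *Mef2c* cKO mice. The *Mef2c* cKO mice were all above the controls for *Slc6a11*, which did not pass the p-value threshold (log2 fold change 0.22, SE 0.07, limma adjusted p = 0.056). *Slc6a12* and *Slc6a13*, GABA carriers of the plasma membrane, were at 0.414 to 7.43 CPM over all mice and were not called. Of 15 interneuron markers 4 were increased (*Sst*, *Npy*, *Cck* and *Htr3a*) and 1 decreased (*Pvalb*), and their summed CPM was 1059 to 1150 in controls and 1222 to 1376 in *Mef2c* cKO mice. *Cck* alone had 241, 273 and 243 CPM in the controls and 470, 485 and 382 CPM in the *Mef2c* cKO mice. The markers not called had log2 fold changes from -0.32 (*Dlx6*) to 0.25 (*Dlx2*), with *Gad1* at -0.26 and *Gad2* at 0.16. The part of interneuron RNA in the *Slc32a1* values was not tested.

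None of the 5 plasma membrane glutamate transporters was called by limma with or without voom weights, while 3 had an unadjusted p under 0.05. *Slc1a2* was lower and *Slc1a1* higher in *Mef2c* cKO mice past the p-value threshold, both by less than the fold change threshold. *Slc1a2*, which encodes GLT-1 and clears most synaptic glutamate in cortex, had 3578, 3302 and 3340 CPM in the controls and 2739, 3014 and 2839 CPM in the *Mef2c* cKO mice. No *Mef2c* cKO mouse reached the lowest control, with a log2 fold change of -0.25 (SE 0.07, limma adjusted p = 0.046). *Slc1a1*, the transporter of neurons known as EAAC1, had 142, 144 and 137 CPM in the controls and 159, 158 and 166 CPM in the *Mef2c* cKO mice, all above the controls, with a log2 fold change of 0.19 (SE 0.05, limma adjusted p = 0.038). For *Slc1a3*, the astrocytic transporter GLAST, the controls had 324, 332 and 304 CPM and the *Mef2c* cKO mice 262, 276 and 304 CPM. These values touch, and the log2 fold change of -0.19 had a limma adjusted p-value of 0.0997. When limma took the replicate number as a block, the adjusted p-value became 0.177 for *Slc1a2* and 0.116 for *Slc1a1*. It was also above 0.05 for *Slc1a1* in all 6 limma fits that left out a mouse (0.072 to 0.115), without a variance trend (0.097) and in the 12-week-old mice alone (0.129). For *Slc1a2* this was so in all fits that left out a mouse (0.075 to 0.170) but the one without *Mef2c* cKO replicate 2 (0.045), with pseudocounts of 0.5 and 1 (0.052 and 0.057), with scaling by median ratios (0.073), without a variance trend (0.066), without a filter (0.102) and in the 12-week-old mice alone (0.348). *Slc1a2* made up 88.5%, 87.4% and 88.4% of the reads on these 3 genes in the controls and 86.7%, 87.4% and 85.8% in the *Mef2c* cKO mice, which overlap (exact permutation test, p = 0.2). Of 12 astrocyte markers *Aqp4*, *Gfap* and *Ntsr2* were increased and *Aldh1l1* was decreased. *S100b* (log2 fold change -0.26, limma adjusted p = 0.022) and *Aldoc* (-0.21, limma adjusted p = 0.028) were lower past the p-value threshold alone. The summed CPM of the list overlapped between genotypes, with 1701 to 1813 in controls and 1798 to 1936 in *Mef2c* cKO mice. The part of astrocyte RNA in these values was not tested.

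*Slc6a9*, which encodes the glycine transporter GlyT1 that keeps glycine low around NMDA receptors, was increased. It had 38.1, 36.1 and 37.4 CPM in the controls and 42.8, 48.8 and 49.4 CPM in the *Mef2c* cKO mice, all above the controls, with a log2 fold change of 0.33 (SE 0.07, limma adjusted p = 0.014). The call was lost in limma without control replicate 2 (adjusted p = 0.054), *Mef2c* cKO replicate 2 (0.052) or *Mef2c* cKO replicate 3 (0.051). *Slc6a9* lies on chromosome 4 from 117507111 to 117547803, and 1986 of its 5141 annotated exon bases overlap genes on the opposite strand, mainly *B4galt2*. The libraries were directional, and the strand setting of the counting is not given in the sources used here. *B4galt2* itself was decreased, with 79.3, 90.3 and 81.7 CPM in the controls and 57.8, 57.1 and 61.1 CPM in the *Mef2c* cKO mice (log2 fold change -0.51, limma adjusted p = 8.0e-04). The second glycine transporter, *Slc6a5*, the GlyT2 of glycinergic neurons in spinal cord and brainstem, had 0 to 2 reads per mouse.

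*Slc6a15* was the only called gene among the 6 tested amino acid transporters of the Slc6 family. It encodes a sodium-coupled carrier of branched-chain amino acids and proline in neurons and lies on chromosome 10 from 102830477 to 102882011. Its CPM was 47.3, 46.1 and 50.4 in the controls and 56.6, 61.2 and 64.2 in the *Mef2c* cKO mice, so that every *Mef2c* cKO mouse was above every control (log2 fold change 0.34, SE 0.07, limma adjusted p = 0.010). Without *Mef2c* cKO replicate 3 the log2 fold change was 0.296, just under the threshold (limma adjusted p = 0.037). *Slc6a17*, which encodes a vesicular carrier of neutral amino acids in glutamatergic terminals, had 654, 609 and 590 CPM in the controls and 536, 533 and 560 CPM in the *Mef2c* cKO mice. It was thus below the controls in all mice, with a log2 fold change of -0.18 (SE 0.06, limma adjusted p = 0.071). *Slc6a20a* and *Slc6a20b* are near-identical copies whose reads the counting can split or drop, and their values are uncertain. Both were within the spread between mice. The creatine transporter *Slc6a8* had 112 to 128 CPM in controls and 119 to 126 CPM in *Mef2c* cKO mice (log2 fold change 0.03, SE 0.06, limma adjusted p = 0.841).

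Of the 5 tested cationic amino acid transporters, 2 were increased and 3 had a log2 fold change below 0, with a median of -0.14. The log2 fold changes of the increased genes, *Slc7a2* and *Slc7a4*, were the highest among the called transporter genes. *Slc7a2*, which encodes CAT2, a carrier of arginine and lysine, had 22.7, 23.0 and 26.6 CPM in the controls and 36.9, 34.8 and 35.2 CPM in the *Mef2c* cKO mice. The mean was 48.1% higher, a log2 fold change of 0.57 (SE 0.08, limma adjusted p = 0.0013). *Slc7a4*, a related protein whose transported substrate is not established, had 62.5, 70.3 and 56.4 CPM in the controls and 94.9, 83.0 and 96.9 CPM in the *Mef2c* cKO mice. Its mean was 45.2% higher, a log2 fold change of 0.54 (SE 0.09, limma adjusted p = 0.0035). In both genes the lowest *Mef2c* cKO mouse was clear of the highest control, and both stayed called in all 6 limma fits that left out a mouse, in the 12-week-old mice alone and with the replicate block. *Slc7a2* lies on chromosome 8 from 41947750 to 42007662, where 635 of its 9135 exon bases overlap *Gm17475* on the opposite strand, and *Slc7a4* on chromosome 16 from 17572111 to 17577091, where 554 of its 3978 exon bases overlap *P2rx6* on the opposite strand. *P2rx6* had 3.29 to 4.02 CPM in controls and 4.40 to 5.12 CPM in *Mef2c* cKO mice, far below *Slc7a4*.

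*Slc7a1*, which encodes CAT1, the other main arginine carrier, went the other way. It had 49.9, 44.9 and 47.2 CPM in the controls and 40.4, 37.9 and 38.7 CPM in the *Mef2c* cKO mice, and its log2 fold change of -0.28 passed the p-value threshold but not the fold change threshold (SE 0.07, limma adjusted p = 0.021). Its limma adjusted p-value was 0.046 with the replicate block and 0.085 in the 12-week-old mice alone. It was 0.075, 0.030 and 0.057 without control replicates 1, 2 and 3, and 0.033 and 0.068 without *Mef2c* cKO replicates 1 and 2. Of the reads on *Slc7a1*, *Slc7a2* and *Slc7a3* together, *Slc7a2* took 28.4%, 30.8% and 32.9% in the controls and 44.5%, 44.6% and 43.3% in the *Mef2c* cKO mice. The share of *Slc7a2* was thus higher in all 3 *Mef2c* cKO mice, which restates the levels of *Slc7a2* and *Slc7a1* given above.

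**Figure D4:**
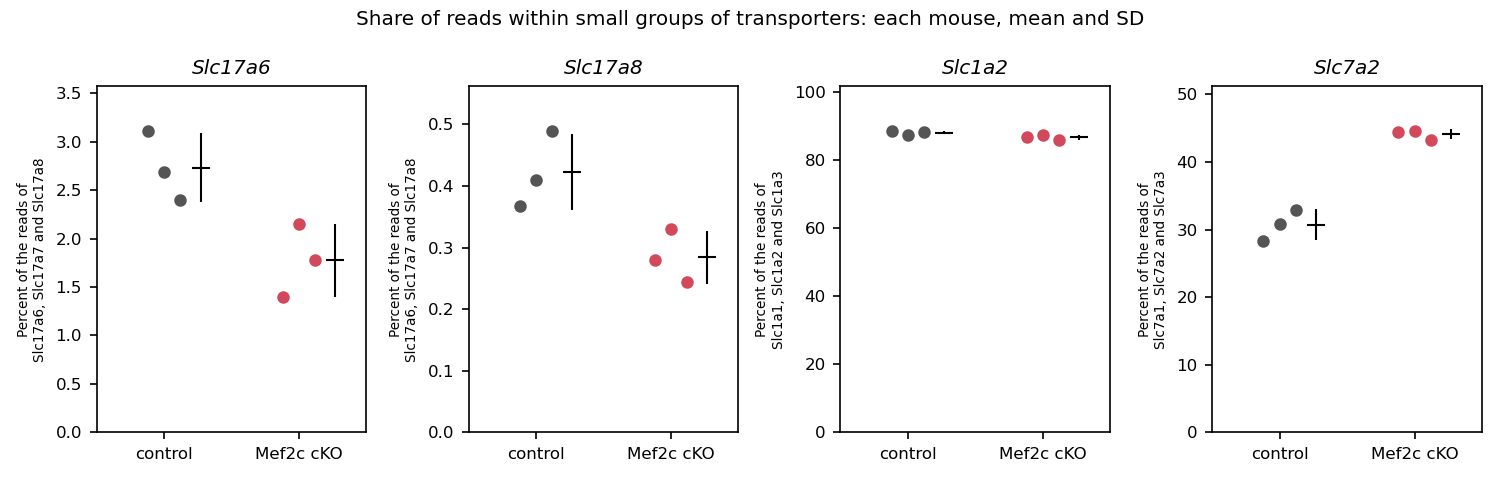
Share of reads in percent that 1 gene takes within a small group of related transporters, for each mouse, with the mean and SD of the 3 mice of a genotype beside the points. The genotypes do not overlap for *Slc17a6*, *Slc17a8* and *Slc7a2*, and they overlap for *Slc1a2*.

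No heavy or light chain of the heteromeric amino acid transporters was called among 9 tested by limma with or without voom weights, and 1, *Slc7a8*, had an unadjusted p under 0.05. *Slc3a2*, the common heavy chain 4F2hc, had 138, 144 and 147 CPM in the controls and 152, 139 and 152 CPM in the *Mef2c* cKO mice (log2 fold change 0.05, SE 0.06, limma adjusted p = 0.646). *Slc7a5*, the light chain LAT1 for large neutral amino acids at the blood-brain barrier and in neurons, had a log2 fold change near 0 (-0.03, SE 0.08, limma adjusted p = 0.861). *Slc7a11*, the cystine/glutamate exchanger xCT of astrocytes, had 32.9, 30.8 and 31.1 CPM in the controls and 38.6, 28.9 and 38.8 CPM in the *Mef2c* cKO mice, with *Mef2c* cKO replicate 2 below and the others above all controls (log2 fold change 0.15, SE 0.11, limma adjusted p = 0.434). Without that mouse the log2 fold change of *Slc7a11* was 0.29 (limma adjusted p = 0.040), and it was 0.08 without either *Mef2c* cKO replicate 1 or *Mef2c* cKO replicate 3. *Slc7a8*, the light chain LAT2, passed the p-value threshold alone. It had 75.9, 76.4 and 72.5 CPM in the controls and 63.6, 65.1 and 62.8 CPM in the *Mef2c* cKO mice, a narrow spread in both, with a log2 fold change of -0.23 (SE 0.06, limma adjusted p = 0.021). Its limma adjusted p-value was 0.053 without a variance trend, 0.064 with the replicate block and 0.12 in the 12-week-old mice alone. It was 0.067, 0.074 and 0.034 without control replicates 1, 2 and 3, and 0.055 and 0.044 without *Mef2c* cKO replicates 1 and 2.

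Among the 10 tested sodium-coupled neutral amino acid transporters of the Slc38 family, 8 had a positive and 2 a negative log2 fold change, and *Slc38a2* was called. *Slc38a2*, which encodes SNAT2, a glutamine and alanine carrier whose gene is known to respond to amino acid shortage, had 161, 136 and 156 CPM in the controls and 203, 169 and 187 CPM in the *Mef2c* cKO mice. The log2 fold change was 0.30, just past the threshold (SE 0.08, limma adjusted p = 0.040). It was 0.299 and 0.298 with pseudocounts of 0.5 and 1, which ended the call. The call was kept in 7 of 16 alternatives run on the recovered reads. It was lost with scaling by median ratios (log2 fold change 0.299), without a variance trend (limma adjusted p = 0.104) and in the 12-week-old mice alone (log2 fold change 0.28, limma adjusted p = 0.111), and also without control replicate 2 (log2 fold change 0.23), control replicate 3 (adjusted p = 0.068), *Mef2c* cKO replicate 1 (log2 fold change 0.24) or *Mef2c* cKO replicate 3 (adjusted p = 0.092). Its 250 bases before the RefSeq start site are shown because the gene is the called member closest to the amino acid response. Capitals mark TGACG, the core of the cAMP response element, and not the amino acid response motif TGATGNAA searched further below.
Slc38a2 (chr15:96699729-96699978, minus strand): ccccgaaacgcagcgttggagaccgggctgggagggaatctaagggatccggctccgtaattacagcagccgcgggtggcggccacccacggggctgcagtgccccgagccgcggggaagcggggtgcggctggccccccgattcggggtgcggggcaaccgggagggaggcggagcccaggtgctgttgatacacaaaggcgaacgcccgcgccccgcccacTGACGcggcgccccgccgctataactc
The stretch held 1 copy of TGACG, counted on both strands, and 72.0% of its bases were G or C, against a median of 52.4% over all RefSeq windows.

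The other Slc38 genes named for the glutamine cycle were not called. *Slc38a1*, the SNAT1 of neurons that take up glutamine, had 234, 206 and 209 CPM in the controls and 207, 201 and 218 CPM in the *Mef2c* cKO mice (log2 fold change -0.05, SE 0.07, limma adjusted p = 0.689). *Slc38a3*, the SNAT3 by which astrocytes release glutamine, had 59.7, 56.4 and 51.9 CPM in the controls and 65.8, 63.9 and 61.4 CPM in the *Mef2c* cKO mice, all above the controls, and did not pass (log2 fold change 0.19, SE 0.07, limma adjusted p = 0.104). *Slc38a7*, a lysosomal glutamine exporter, also had all *Mef2c* cKO mice above all controls, by a small margin, with 28.2 CPM in the highest control and 28.4 CPM in the lowest *Mef2c* cKO mouse (log2 fold change 0.31, SE 0.10, limma adjusted p = 0.068). *Slc36a1*, a proton-coupled amino acid transporter of lysosomes and plasma membrane, had 93.6, 81.6 and 78.9 CPM in the controls and 110, 104 and 95.0 CPM in the *Mef2c* cKO mice. It passed the p-value threshold with a log2 fold change of 0.29, under the fold change threshold (SE 0.08, limma adjusted p = 0.043). Its limma adjusted p-value was 0.105 without a variance trend, 0.056 with scaling by median ratios and 0.031 with the replicate block. It was 0.020, 0.129 and 0.139 without control replicates 1, 2 and 3, and 0.136 and 0.109 without *Mef2c* cKO replicates 1 and 2.

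Of the 52 tested genes, 12 passed the p-value threshold, and the 5 under the fold change threshold were *Slc1a1*, *Slc1a2*, *Slc7a1*, *Slc7a8* and *Slc36a1*. *Slc7a1*, *Slc7a8*, *Slc36a1*, *Slc6a17* and *Slc38a7* were named after their values were seen, because their genotypes did not overlap, and *Slc17a9* because it had the lowest log2 fold change. The 11 tested transporter genes with a control mean under 3 CPM had standard errors of 0.18 to 0.34, against 0.05 to 0.24 in the others, and none was called by limma or had an unadjusted p under 0.05.

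**Figure D5:**
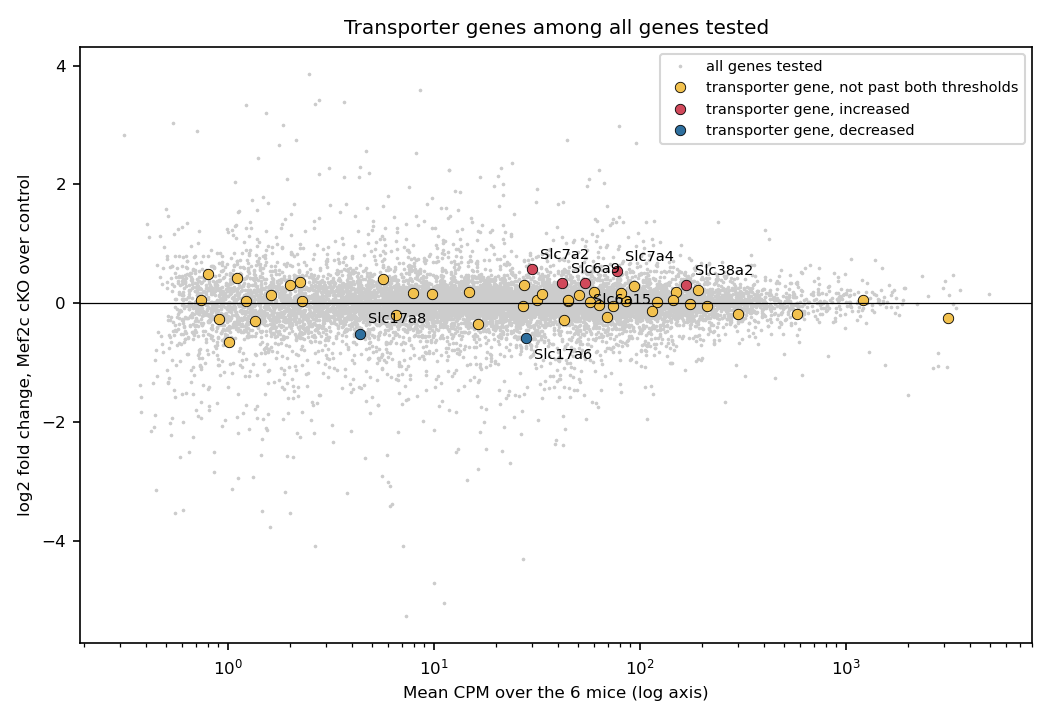
Log2 fold change against mean CPM over the 6 mice for all 14625 genes tested (grey points), with 51 of the 52 tested transporter genes as larger circles. The 7 called transporter genes are labelled, and the transporter genes shown lie between -0.66 and 0.57, inside the cloud of all genes.

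The 19 transporter genes that were not tested were near 0 throughout, with at most 0.947 CPM in any mouse. Among them were the plasma membrane carriers of noradrenaline, dopamine and serotonin (*Slc6a2*, *Slc6a3* and *Slc6a4*) and the vesicular monoamine and acetylcholine carriers *Slc18a1*, *Slc18a2* and *Slc18a3*, whose genes are transcribed in cell bodies that lie mostly outside the cortex. *Slc6a2* had 6 to 30 reads per mouse, *Slc6a3* 0 to 6 and *Slc6a4* 0 to 3. *Slc18a3* had 0 reads in all 6 mice. The kidney and intestine carriers *Slc17a1*, *Slc17a4* and *Slc7a9* had 0 or 1 read per mouse.

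The RefSeq windows of 300 bases, 250 before and 50 after an annotated start site, were searched for 4 motifs on both strands, with 74 windows for 51 of the transporter genes. TGACG was in 27.0% of these windows and in 20.8% of all 32851 windows. Its palindrome TGACGTCA, which contains it, was in 2.7% and 1.79%. TGATGNAA, the element bound by C/EBP and ATF factors in amino acid response genes, was in 5 of the 74 windows, those of *Slc17a1*, *Slc1a4*, *Slc7a7* and *Slc7a11*, against 3.97% of all windows. The MEF2 consensus was in 3 of the 74, in *Slc38a7*, *Slc3a1* and *Slc6a5*, against 3.19% of all windows. Of the called genes, *Slc17a6*, *Slc17a8*, *Slc38a2* and *Slc6a9* had windows, none with a match to TGATGNAA or the MEF2 consensus. No window was held for *Slc7a2*, *Slc7a4* and *Slc6a15*. Elements outside these windows, such as those further inside a gene, were not searched.

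The enzymes that make and break down the same transmitters were measured as a list beside the carriers. None of the 14 enzymes of glutamate, glutamine and GABA metabolism was called in limma with or without voom weights, 3 of them had an unadjusted p under 0.05, and their median log2 fold change was 0.03. Of 18 genes of the amino acid starvation response driven by ATF4, 16 were tested and 5 called. *Ddit4* (log2 fold change 0.85), *Aldh1l2* (0.52), *Sesn2* (0.46) and *Phgdh* (0.44) were increased, and *Vldlr* (-0.51) was decreased. The first 4 are known as an inhibitor of mTORC1, a mitochondrial folate enzyme, a leucine sensor and the first enzyme of serine synthesis, and *Vldlr* as a lipoprotein and reelin receptor. The tested genes of the list that were not called had log2 fold changes from -0.15 (*Nupr1*) to 0.24 (*Shmt2*). Among them were *Atf4* itself (-0.02), *Asns* (-0.03), *Atf5* (-0.09), *Ddit3* (-0.15) and *Chac1* (0.11). The median log2 fold change of this list was 0.14, and its summed CPM was 691 to 701 in controls and 711 to 752 in *Mef2c* cKO mice. Whether this response was active in the tissue was not tested.

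Cell type markers moved between genotypes as well. All 16 pyramidal neuron markers were measured, with 5 increased and 7 decreased, and their summed CPM overlapped between genotypes. Among the decreased markers is *Emx1*, where the Cre is described as a knock-in, so its level does not separate cell type from the altered allele. Of 12 oligodendrocyte markers *Mobp* and *Cldn11* were increased, with a summed CPM of 3373 to 5493 in controls and 5414 to 6947 in *Mef2c* cKO mice, which overlap narrowly. Of these markers 9 had an unadjusted p under 0.05 in limma, all with a log2 fold change above 0, and 3 were called with voom weights. The median log2 fold change of the list was 0.47. No marker of microglia or of endothelial and mural cells was called among 12 each by limma with or without voom weights, and 3 of each had an unadjusted p under 0.05. Single genes were called on the lists of meningeal fibroblasts (*Dcn* increased, *Igfbp2* decreased), choroid plexus (*Prlr* decreased), striatum (*Penk* increased) and brainstem (*Tph2* decreased), and the summed CPM of these 4 lists overlapped between genotypes. The part of a changed mixture of cells in the transporter values was not tested.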

How the data were processed

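PolyA-selected, directional libraries were made from RNA of 6 mice, 3 per genotype, and the reads were aligned to mm9 with TopHat and Bowtie and counted on UCSC genes with HTSeq. The authors converted the counts to RPKM, and one RPKM table per mouse was deposited. The lengths in these values cycle over rows sorted by gene ID. Each table's steps, cycle and total were found, and each row was given the whole count at its place in the cycle. Of 21759 rows, 43 could not be settled, and 92 rows without a symbol were left out. The recovered counts summed to 99.99% of the totals found.

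CPM were compared as log2(CPM + 0.1) by limma 3.58.1 (R 4.3.3) with a variance trend. A log2 scale with a pseudocount understates changes of low genes. Single values were compared by two-sided exact permutation tests (scipy 1.17.1, Python 3.11.15), and plots were drawn with matplotlib 3.10.9. Recovery and fit were tested on simulated data. The alternatives were other pseudocounts, filters, scaling, a replicate block, the 12-week-old mice alone, leaving out each mouse, the deposited RPKM, a stricter fold change and, added after seeing the data, voom weights. Genes named were all called members and 16 core carriers; another carrier of the rule is not reported here. Coordinates and exons are those of GENCODE M1 (mm9), found for 70 of the 71 genes, and promoters are from RefSeq (GRCm38.p6). The members and lists were chosen with earlier results of these data known. p-values measure the spread between these mice.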

Additional observations from a re-analysis of the deposited data

How the results depend on the processing

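With the deposited RPKM, 14 genes in all and 0 transporter genes passed, and *Mef2c* had a log2 fold change of 0.016; the lengths behind these values differ between mice. There the log2 fold change turned sign for *Slc17a7* (-0.71), *Slc1a1* (-0.10), *Slc32a1* (-0.41), *Slc38a3* (-0.44), *Slc3a2* (-4.54), *Slc6a15* (-1.68), *Slc6a8* (-1.06), *Slc6a9* (-0.52), *Slc7a11* (-1.61), *Slc7a4* (-1.47), *Slc7a5* (1.16) and *Slc36a1* (-0.60). A fold change threshold of 1 left 472 genes and 0 transporter genes and ended the call of *Mef2c* (0.74). The number of decreased transporter genes was 1 without a filter on low values, 1 without the variance trend and 0 in the 12-week-old mice alone. With 1 mouse left out at a time, the transporter genes called numbered 3 to 7, the decreased 0 to 2 and the increased 3 to 6, with the lowest of each without *Mef2c* cKO replicate 3. All genes called then numbered 1657 to 1869, and the log2 fold change of *Mef2c* was 0.66 to 0.79. In the 12-week-old mice, *Slc38a1* (0.015), *Slc6a8* (-0.017) and *Slc7a5* (0.020) changed sign. With 1 mouse left out, so did *Slc38a1* (-0.082 to 0.0098) and *Slc6a8* (-0.025 to 0.075), both without control replicate 1, *Slc7a5* (-0.087 to 0.040), without control replicate 2 (0.0065) or *Mef2c* cKO replicate 1, and *Slc32a1* (-0.055 to 0.094), without control replicate 3. *Slc36a1* was called without control replicate 1 or *Mef2c* cKO replicate 3 and in the 12-week-old mice, *Slc38a7* without control replicate 2 and *Slc7a1* without control replicate 2 or *Mef2c* cKO replicate 1. Deviations of same-numbered mice from their group means correlated with r of -0.18, -0.11 and -0.08, so the numbers were not taken to pair the mice. With the replicate number as a block, 6 transporter genes (1 decreased, 5 increased) and 1695 genes in all were called. voom weights gave calls for the same 7 transporter genes. The other alternatives kept the direction of all 24 named transporter genes. All comparisons rest on 3 mice per genotype, and transporter genes under 3 CPM had standard errors of 0.18 to 0.34.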
